A study of Mus musculus with 6 samples.

Results

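The genes described here are 34 genes of cholesterol and fatty acid synthesis and of sterol transport, out of 19038 genes named on the arrays. They were listed by known role and matched to probes by current or earlier symbols, a rule that uses no intensity, although the set itself was chosen with earlier results of these data known. Of the 34 genes, 30 had a named probe and 27 were tested, while Acat2, Hmgcs1, Fdft1 and Soat2 had no probe named here. The remaining 3, Acaca, Fasn and Scd2, had a probe that was detected too rarely to be tested. RNA came from tissue labelled jejunum of 6 male C57BL/6J mice aged 8 weeks, all exposed to 9 Gy of total body irradiation (TBI) and sampled 12 h later. Immediately after TBI, 3 mice received EGFP (enhanced green fluorescent protein, the control protein) and 3 received NeuroD-EGFP, which joins the transcription factor NeuroD to EGFP. Each protein was injected intraperitoneally as 100 µl at 0.1 mM, so NeuroD was delivered as protein and not from a transgene. All mice were irradiated, and no sham-irradiated array was analysed here.

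Cholesterol is built from acetyl-CoA through mevalonate and squalene, and fatty acids are built from the same acetyl-CoA. Both pathways are driven by the sterol regulatory element-binding proteins (SREBPs), which SCAP escorts from the endoplasmic reticulum when sterols are scarce and which the INSIG proteins hold back when sterols are plentiful. The enterocytes of the small intestine absorb dietary and biliary cholesterol, pump part of it back into the lumen, and also make cholesterol themselves. The liver X receptors (LXRs), which sense oxidised sterols, drive sterol export and the Srebf1 gene.

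Each mouse was measured on 1 Illumina Mouse WG-6 beadchip array, which reads transcripts by oligonucleotide probes. A probe counted as detected when its detection p-value, set against negative control beads, was under 0.05. The arrays detected between 18271 and 20408 of 45281 probes, with the most in EGFP 3. Values are log2 intensities after background correction and quantile normalization, each gene is represented by its brightest tested probe, and probes were tested when detected on at least 3 of 6 arrays. The log2 difference is the NeuroD-EGFP mean minus the EGFP mean, given with its standard error (SE) and tested with limma and adjusted by the Benjamini-Hochberg method over all 19099 tested probes. The number of arrays limits the precision.

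The sample labelled EGFP 3 stood apart from the other 5 in genes that mark the region of the gut. Lct, the lactase of the jejunal brush border, had log2 intensities of 12.15 and 12.95 in EGFP 1 and 2 and of 12.94, 12.95 and 13.27 in NeuroD-EGFP 1 to 3, but was not detected in EGFP 3 (4.56). Fabp6, the ileal bile acid-binding protein, had 14.26 in EGFP 3 and between 4.38 and 5.79 in the other mice, detected only in NeuroD-EGFP 1 of those. These values go against the label jejunum for EGFP 3. The enterocyte marker list, which checks the labelled tissue, had 13 of 15 genes tested, and all 13 were detected in each mouse except EGFP 3, where 11 were. Its median log2 intensity was 11.23 in EGFP 3 and between 13.27 and 13.49 elsewhere. Of the 13 genes, 8 were lowest in EGFP 3 and 1, Anpep, was highest there (14.50 against 13.85 to 14.34). Vil1, at 13.64 against 13.45 to 13.83 elsewhere, did not fall. Further lists of region genes were written after these values were seen. Of 8 proximal small intestine genes, 7 were tested, with a log2 summed intensity of 14.74 in EGFP 3, 16.22 and 16.35 in EGFP 1 and 2 and 16.30 to 16.40 in the NeuroD-EGFP mice. Gata4, Lct and Fabp1 of that list were not detected in EGFP 3. Of the 7 tested genes 6 were lowest in EGFP 3, while Sis was 14.49 there against 14.38 to 14.66 elsewhere. Cybrd1, not tested, was detected in EGFP 1 and EGFP 3 alone. Of 6 ileum genes, 4 were tested, with 14.72 in EGFP 3, 12.79 and 12.86 in the other EGFP mice and 12.86 to 13.15 in the NeuroD-EGFP mice. Slc10a2, an untested gene of the ileum list, was not detected in any mouse. Of 11 colon genes, 5 were tested, with 13.75 in EGFP 3, 8.28 and 8.31 in the other EGFP mice and 9.74 to 11.19 in the NeuroD-EGFP mice. Of the untested colon genes, Aqp8 and Hoxb13 were not detected in any mouse, Car1 (7.0) and Retnlb (5.87) were detected in EGFP 3 alone, and B3galt5 was 7.82 there against 4.71 to 5.62 elsewhere.
Smooth muscle markers also had EGFP 3 highest and EGFP 1 and 2 lowest. Of 7 such genes 6 were tested, and all 6 were highest in EGFP 3 with every NeuroD-EGFP mouse between it and EGFP 1 and 2. Their log2 summed intensity was 14.65 in EGFP 3, 13.25 and 12.99 in EGFP 1 and 2, and 13.73 to 13.92 with NeuroD-EGFP. The remaining lists did not follow that order in their log2 summed intensity, which ran from 11.42 to 11.95 for proliferation, 11.39 to 12.37 for macrophages, 9.54 to 10.99 for T and NK cells, 10.89 to 13.85 for interferon-stimulated genes, 8.84 to 9.83 for hepatocytes and 11.23 to 12.25 for pancreas. Of 4 tested hepatocyte markers 3 were highest in EGFP 3, while Ttr was 7.95 there against 8.09 in NeuroD-EGFP 1, and Alb, not tested, was detected in EGFP 1 alone. The log2 difference of each tested gene of the set is therefore given with all 6 mice and without EGFP 3.

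**Figure D1:**
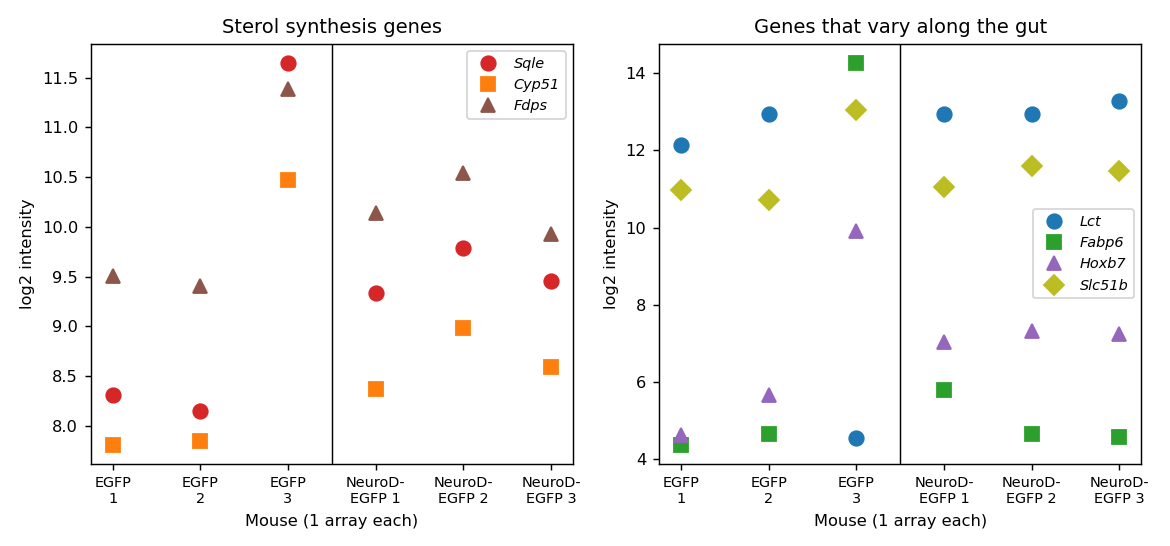
Log2 intensity (vertical axes) in each of the 6 mice (horizontal axes, 1 array each) for 3 sterol synthesis genes (left) and 4 genes that vary along the gut (right). In EGFP 3, Sqle, Cyp51 and Fdps were at their highest, Fabp6 was at 14.26 and Lct at 4.56, where Lct was not detected.

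With all 6 mice, none of the 27 tested genes passed an adjusted p of 0.05 from limma (lowest adjusted p = 0.92), and none had an unadjusted p under 0.05, while Dhcr7 and Ebp did by the methods' t-test. Over all 10773 tested genes 0.0% passed after adjustment, and 2.2% were higher and 2.56% lower at an unadjusted p under 0.05. The log2 difference was above 0 in 15 of the 27 genes and below 0 in 12, where 50.8% of all tested genes were positive. The median log2 difference was 0.03, against 0.00 (0.0047) over all tested genes. Because these are RNA levels of whole tissue, fewer cells of a type and less RNA per cell cannot be told apart. With 3 mice against 3, an exact permutation test of a single gene cannot go below p = 0.1, two-sided.

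**Figure D2:**
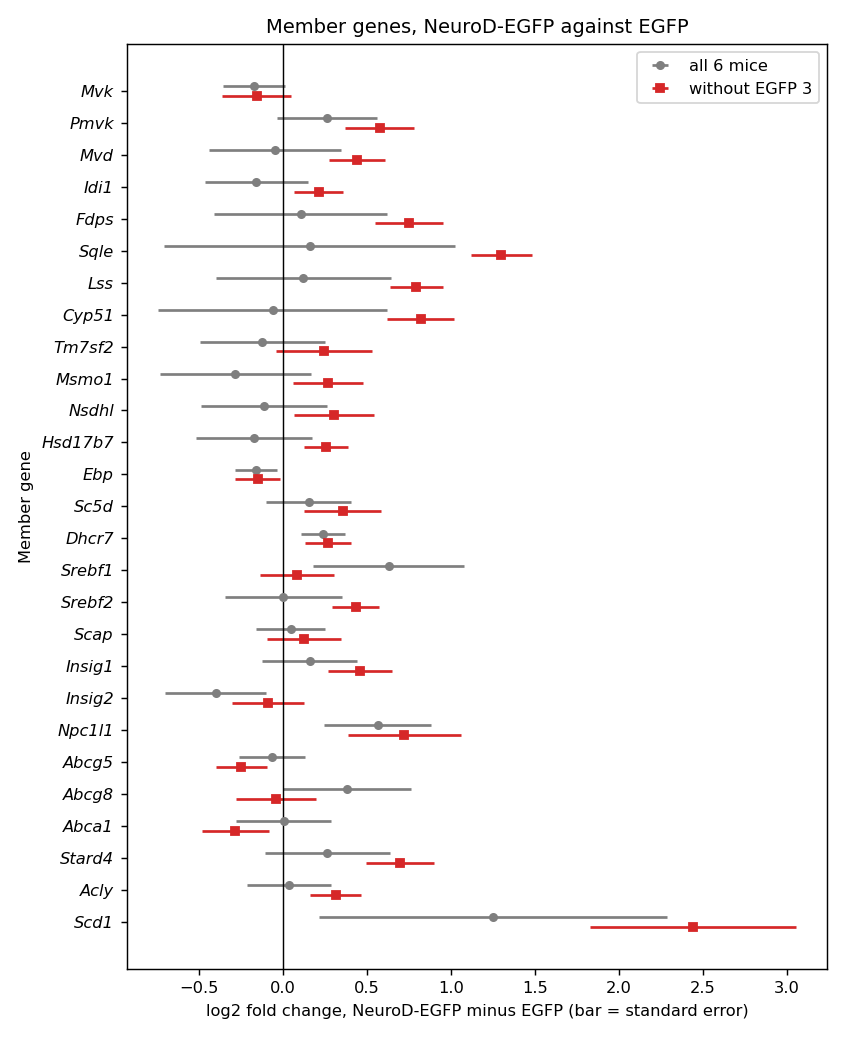
Log2 fold change, here called the log2 difference (NeuroD-EGFP minus EGFP, horizontal axis), with its standard error (SE) for the 27 tested genes (vertical axis), with all 6 mice (grey circles) and without EGFP 3 (red squares). With all 6 mice the bars of most genes cross 0, and without EGFP 3 Sqle lay at 1.30 and Scd1 at 2.44.

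The first enzymes of the set lead from acetyl-CoA to farnesyl diphosphate. Of 7 such genes 5 were tested, with a median log2 difference of -0.05, and 4 of the 5 were highest in EGFP 3. Fdps, which makes farnesyl diphosphate, had log2 intensities of 9.50, 9.40 and 11.39 in EGFP 1 to 3 and of 10.14, 10.54 and 9.93 in NeuroD-EGFP 1 to 3. All 3 NeuroD-EGFP mice thus lay above EGFP 1 and 2 and below EGFP 3. The group means were 10.10 ± 1.12 (SD, n = 3) and 10.20 ± 0.31 (SD, n = 3), a log2 difference of 0.10 (SE 0.52). A dimmer Fdps probe, detected on 3 of 6 arrays, gave 0.09 (SE 0.49) and also peaked in EGFP 3.
Pmvk, which phosphorylates mevalonate 5-phosphate, had 6.60, 6.40 and 7.44 with EGFP and 7.37, 7.08 and 6.77 with NeuroD-EGFP. Its log2 difference was 0.26 (SE 0.30), with EGFP 3 just above NeuroD-EGFP 1. Mvk, the mevalonate kinase, stayed between 5.44 and 6.04 in all 6 mice and was dim, detected on 4 of 6 arrays. Its log2 difference of -0.17 (SE 0.18) hardly moved without EGFP 3 (-0.16), and its groups overlapped. Mvd, which makes isopentenyl diphosphate, ran from 6.57 in EGFP 1 to 8.18 in EGFP 3 and had a log2 difference of -0.05. Idi1, which isomerises that product, ran from 7.28 in EGFP 1 to 8.43 in EGFP 3, with -0.16.

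The second stretch of the pathway turns farnesyl diphosphate into squalene, lanosterol and cholesterol, and 10 of its 11 genes were tested. Their median log2 difference was -0.09, and 8 of the 10 were highest in EGFP 3. Sqle, the squalene epoxidase and a controlled step of the pathway, showed the pattern most clearly. Its log2 intensities were 8.30, 8.15 and 11.65 in EGFP 1 to 3 and 9.33, 9.79 and 9.45 in NeuroD-EGFP 1 to 3. EGFP 3 was 3.42 above the mean of EGFP 1 and 2, a 10.7-fold difference in intensity, and the NeuroD-EGFP mice lay in between. The group means, 9.37 ± 1.98 (SD, n = 3) and 9.52 ± 0.24 (SD, n = 3), gave a log2 difference of 0.16 (SE 0.87, limma adjusted p = 0.99). A second Sqle probe placed EGFP 3 3.54 above EGFP 1 and 2, with a log2 difference of -0.15 (SE 0.91), and the other Sqle probe was not detected in any mouse.
Cyp51, the lanosterol demethylase, had 7.81, 7.85 and 10.47 with EGFP and 8.37, 8.98 and 8.59 with NeuroD-EGFP. EGFP 3 was 6.22-fold above EGFP 1 and 2, while the group difference was -0.06 on the log2 scale (SE 0.68). Lss, which closes squalene epoxide into lanosterol, had 6.37, 6.33 and 8.37 with EGFP and 7.05, 7.34 and 7.05 with NeuroD-EGFP, a log2 difference of 0.12 (SE 0.52). In both genes the NeuroD-EGFP mice again fell between EGFP 3 and the other controls. Msmo1, a sterol methyl oxidase, was brighter, from 10.12 in EGFP 1 to 11.99 in EGFP 3, with a log2 difference of -0.28 (SE 0.45).
Hsd17b7, a 3-ketosterol reductase of the same demethylation steps, had 9.09, 9.07 and 10.38 with EGFP and 9.37, 9.33 and 9.31 with NeuroD-EGFP. Its NeuroD-EGFP mice were nearly equal (SD 0.03, n = 3), and its log2 difference was -0.18 (SE 0.35). The log2 differences of Nsdhl, a sterol dehydrogenase, and Tm7sf2, a sterol C14 reductase, were -0.11 and -0.12. All 4 Nsdhl probes were highest in EGFP 3, by 1.02 to 2.08 over the mean of EGFP 1 and 2. Sc5d, a lathosterol desaturase, had a log2 difference of 0.15 and stayed within 0.88 over the 6 mice.

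Ebp and Dhcr7, which act late in the pathway, did not share this pattern. Dhcr7, the reductase that makes cholesterol from its last precursor, had 7.43, 7.38 and 7.50 with EGFP and 7.76, 7.61 and 7.66 with NeuroD-EGFP. The lowest NeuroD-EGFP value was above the highest EGFP value, with a log2 difference of 0.24 (SE 0.13, limma adjusted p = 0.92) and 0.27 without EGFP 3. Ebp, a sterol isomerase, had 10.62, 10.56 and 10.61 with EGFP and 10.43, 10.41 and 10.47 with NeuroD-EGFP, so that each NeuroD-EGFP mouse was lower. Its log2 difference was -0.16 (SE 0.13, limma adjusted p = 0.93). These were the 2 of 27 genes whose groups did not overlap, where 11.4% of all tested genes did not overlap. Both differences are small, and Ebp was among the steadiest of the set, with a range of 0.21 over the 6 mice.

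**Figure D3:**
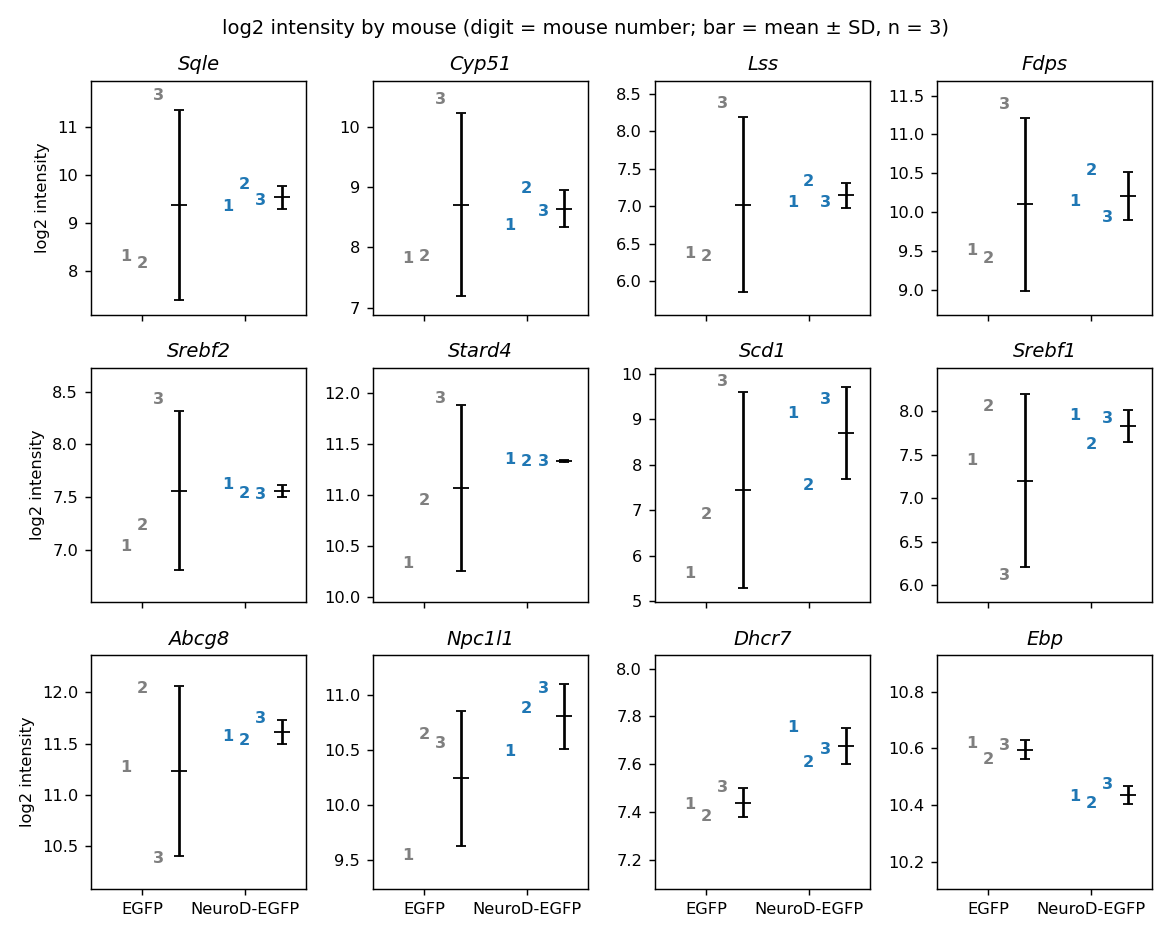
Log2 intensity (vertical axes) of 12 genes in EGFP and NeuroD-EGFP mice. Digits mark mouse numbers and bars the mean ± SD (n = 3). For Sqle, Cyp51, Lss, Fdps and Srebf2 the NeuroD-EGFP mice lie between EGFP 1 and 2 below and EGFP 3 above, while for Srebf1 and Abcg8 EGFP 3 is the lowest mouse.

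Since many genes of the 2 enzyme groups varied together, their promoters were searched for a pair of short sequences. TCACNCCA matches the sterol regulatory element that SREBPs bind, and CCAAT is the box bound by NF-Y, a factor known to work beside SREBPs. Both strands of the 250 bases before each RefSeq start site (build GRCm38.p6) were searched, and 27 of the 34 genes had an entry. Fdft1, Fdps, Scd1, Scd2, Soat2, Sqle and Stard4 had none. CCAAT occurred in 77.8% of 18 windows of the 15 sterol synthesis genes with an entry, and in 33.8% of all 32851 windows of the same length. Of those 18 windows 9 held it at least 2 times, against 10.1% of all windows. Mvk, Ebp and Dhcr7, which were not highest in EGFP 3, held it too. Mvk had 5 matches, Ebp 2 and Dhcr7 up to 2 in a window, while Lss and Cyp51 had 1 each. Whether the motifs go with the shared variation was not tested. TCACNCCA occurred in 3.67% of all windows and in 3 of the 36 windows of the set, those of Hmgcs1, Msmo1 and Srebf2. In no window printed here did the motifs overlap. A match describes the letters and was not tested as a binding site.
The windows below are examples and do not stand for the set. Each holds CCAAT, and for a gene with several windows the one with the most CCAAT is shown. Srebf2 and Msmo1 are the tested genes with a TCACNCCA match. Of the genes shown, 4 were highest in EGFP 3, as were 18 of 27 in the set. Abcg8, an LXR-driven exporter, was lowest there. Capitals mark TCACNCCA and CCAAT on either strand, so that ATTGG is CCAAT read on the other strand. They lie at chr15:82147019-82147268 (plus strand) for Srebf2, at chr8:64733579-64733828 (minus strand) for Msmo1, at chr10:76531355-76531604 (plus strand) for Lss, at chr5:4104698-4104947 (minus strand) for Cyp51 and at chr17:84682871-84683120 (plus strand) for Abcg8, all in GRCm38.p6 and written 5′ to 3′ towards the start site.
Srebf2: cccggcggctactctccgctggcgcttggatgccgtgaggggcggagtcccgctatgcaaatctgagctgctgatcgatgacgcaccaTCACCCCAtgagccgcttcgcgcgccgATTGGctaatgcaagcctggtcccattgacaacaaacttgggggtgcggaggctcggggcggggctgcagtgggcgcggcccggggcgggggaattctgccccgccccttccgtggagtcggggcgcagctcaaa
Msmo1: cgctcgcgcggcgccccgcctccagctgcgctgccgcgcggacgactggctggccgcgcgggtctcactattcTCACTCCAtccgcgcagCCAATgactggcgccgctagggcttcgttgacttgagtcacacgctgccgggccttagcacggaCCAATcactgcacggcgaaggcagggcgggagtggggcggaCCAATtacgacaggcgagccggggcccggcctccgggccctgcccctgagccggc
Lss: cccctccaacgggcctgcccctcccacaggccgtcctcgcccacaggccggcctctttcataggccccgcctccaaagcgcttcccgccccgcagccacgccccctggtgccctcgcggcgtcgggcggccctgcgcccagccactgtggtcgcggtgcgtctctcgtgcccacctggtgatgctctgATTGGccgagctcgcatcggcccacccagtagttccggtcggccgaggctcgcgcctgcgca
Cyp51: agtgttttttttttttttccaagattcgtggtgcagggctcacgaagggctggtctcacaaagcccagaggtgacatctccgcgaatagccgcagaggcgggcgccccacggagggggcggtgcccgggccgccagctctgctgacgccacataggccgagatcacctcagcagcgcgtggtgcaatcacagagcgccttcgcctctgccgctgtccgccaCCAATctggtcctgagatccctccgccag
Abcg8: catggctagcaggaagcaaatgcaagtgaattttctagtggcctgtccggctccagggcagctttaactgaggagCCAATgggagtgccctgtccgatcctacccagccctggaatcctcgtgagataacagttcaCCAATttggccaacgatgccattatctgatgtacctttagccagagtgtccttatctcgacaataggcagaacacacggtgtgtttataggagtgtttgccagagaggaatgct
In the Srebf2 window the SREBP-type match begins 162 bases before the start site and the CCAAT box begins 135 bases before it. In the Msmo1 window the SREBP-type match begins 177 bases before the start site, followed by CCAAT boxes that begin 160, 96 and 55 bases before it. The Lss, Cyp51 and Abcg8 windows printed here hold CCAAT alone, and that of Abcg8 has it 2 times. Abcg8 has another listed start site, whose window (chr17:84676052-84676301) holds neither motif.

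Among the genes that control the pathway, the 2 SREBP genes went in opposite directions in EGFP 3. Srebf2, whose protein drives sterol synthesis, had log2 intensities of 7.03, 7.22 and 8.42 in EGFP 1 to 3 and of 7.62, 7.53 and 7.52 in NeuroD-EGFP 1 to 3. Srebf1, whose protein leans towards fatty acid synthesis, had 7.43, 8.06 and 6.11 with EGFP and 7.95, 7.62 and 7.92 with NeuroD-EGFP. EGFP 3 was thus the highest mouse for Srebf2 and the lowest for Srebf1. The log2 differences were 0.00 (-0.00026, SE 0.35) for Srebf2 and 0.63 (SE 0.45, limma adjusted p = 0.93) for Srebf1, and without EGFP 3 they were 0.43 and 0.08. The second Srebf1 probe was dim, detected on 4 of 6 arrays, and gave -0.01 (-0.0070, SE 0.20) with no drop in EGFP 3 beyond 0.12 on the log2 scale.
Insig1, itself an SREBP target, had 8.52, 8.36 and 9.34 with EGFP and 8.89, 9.17 and 8.63 with NeuroD-EGFP, a log2 difference of 0.16 (SE 0.28). Of its 4 tested probes 3 were highest in EGFP 3, and the dimmest was highest in EGFP 1. Insig2, a second retention protein that is not driven by SREBP in the same way, had 8.94, 9.10 and 9.95 with EGFP and 8.54, 9.12 and 9.12 with NeuroD-EGFP. Its log2 difference of -0.40 (SE 0.30, limma adjusted p = 0.93) shrank to -0.09 without EGFP 3, so that mouse set most of it. Scap, the escort protein, was steady, between 7.04 and 7.69, with a log2 difference of 0.05. The 5 control genes had a median of 0.05.

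Genes of sterol traffic differed among themselves. Npc1l1, the importer of luminal cholesterol, had log2 intensities of 9.53, 10.64 and 10.55 in EGFP 1 to 3 and of 10.48, 10.88 and 11.06 in NeuroD-EGFP 1 to 3. The low mouse was EGFP 1, and the group ranges overlapped. Its log2 difference of 0.56 (SE 0.32, limma adjusted p = 0.92) was 0.72 without EGFP 3 and 0.21 without EGFP 1. Stard4, a carrier of cholesterol between membranes and an SREBP2 target, had 10.33, 10.95 and 11.94 with EGFP and 11.35, 11.33 and 11.33 with NeuroD-EGFP. Its NeuroD-EGFP mice were nearly equal (SD 0.01, n = 3) and lay between the EGFP mice, with a log2 difference of 0.26 (SE 0.37).
Abcg5 and Abcg8, the paired subunits of the transporter that returns sterols to the lumen, were both lowest in EGFP 3. Abcg8 had 11.27, 12.04 and 10.39 with EGFP and 11.57, 11.53 and 11.74 with NeuroD-EGFP, a log2 difference of 0.38 (SE 0.38, limma adjusted p = 0.95) and -0.04 without EGFP 3. Abcg5 had 13.12, 13.37 and 12.70 with EGFP and 12.90, 13.05 and 13.05 with NeuroD-EGFP, a log2 difference of -0.06 that was -0.25 without EGFP 3. The drop in EGFP 3 was 2.41-fold for Abcg8 and 1.46-fold for Abcg5, against the mean of EGFP 1 and 2. Abca1, the basolateral exporter and an LXR target, ran from 6.33 in EGFP 1 to 5.16 in EGFP 3 and had a log2 difference of 0.00 (0.0025, SE 0.28). Its probe was dim, detected on 5 of 6 arrays, with a deposited signal of 14.5 in EGFP 3 and 30.6 to 82.1 elsewhere. The median log2 difference of the 5 tested transport genes was 0.26, and -0.04 without EGFP 3.

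Of the 5 genes of fatty acid synthesis and desaturation, 2 were tested. Scd1, which desaturates stearoyl-CoA, had the widest range of the set, 4.21 over the 6 mice, rank 42 of 10773 genes. Its log2 intensities were 5.61, 6.90 and 9.82 in EGFP 1 to 3 and 9.12, 7.54 and 9.42 in NeuroD-EGFP 1 to 3. Both groups were spread, and all NeuroD-EGFP mice lay above EGFP 1 and 2 and below EGFP 3. The group means were 7.44 ± 2.16 (SD, n = 3) and 8.69 ± 1.01 (SD, n = 3), a log2 difference of 1.25 (SE 1.03, limma adjusted p = 0.93). It was 2.44 without EGFP 3, but 0.33 without EGFP 1 and 0.89 without NeuroD-EGFP 3. Of 10 adipocyte markers, another source of Scd1, 7 were tested, with a median log2 intensity of 6.77, 6.70 and 7.79 for EGFP 1 to 3 and of 7.40, 6.66 and 7.46 for NeuroD-EGFP 1 to 3. Their log2 summed intensity ran from 10.57 to 10.94 with EGFP and from 10.50 to 11.09 with NeuroD-EGFP. Adipoq, the adipocyte hormone adiponectin, had 4.92, 6.10 and 7.79 with EGFP and 7.14, 5.64 and 7.44 with NeuroD-EGFP, and was 1.23 higher with NeuroD-EGFP without EGFP 3. The 3 mice with Scd1 above 9 were thus also the 3 highest for Adipoq. They were the 3 highest for Plin4 and Lpl too, but not for Fabp4, Lep, Cidec or Pparg. Cidec was lowest in EGFP 3, at 8.48 against 9.60 to 10.38 elsewhere. Plin4, a lipid droplet protein, was 0.86 higher without EGFP 3, while Cidec (-0.19) and Pparg (-0.43) were lower, and Plin1 and Retn were not detected in any mouse. The part of adipocytes in the Scd1 values was not tested.
Acly, which supplies cytosolic acetyl-CoA to both pathways, had 10.15, 9.86 and 10.84 with EGFP and 10.36, 10.34 and 10.25 with NeuroD-EGFP, a log2 difference of 0.03 (SE 0.25). The probes of Fasn, the fatty acid synthase, and Acaca, the acetyl-CoA carboxylase, were not detected in any mouse and give no direction. Scd2, a paralogue of Scd1, was detected in EGFP 3 alone, at 6.59, and was between 4.50 and 5.35 in the other mice.

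Across the set, EGFP 3 was the highest mouse in 18 of 27 genes and the lowest in 4, a count made after the values were seen. Over all tested genes EGFP 3 was the highest in 26.7% and the lowest in 23.7%. The 4 lowest were Srebf1, Abcg5, Abcg8 and Abca1, the last of these with a dim probe. In 13 of 27 genes all NeuroD-EGFP mice lay above EGFP 1 and 2 and below EGFP 3, which held for 7.18% of all tested genes. EGFP 3 exceeded the mean of the other 5 mice by over 1 on the log2 scale in 10 of 27 genes, and in 2.76% of all genes. By that difference Sqle ranked 25, Cyp51 45, Scd1 49 and Lss 99 of 10773 genes, behind Saa1, Cyp2c55, Suox, Tmigd1 and Cfl2 at the top. EGFP 3 fell short of that mean by over 1 in 2 of 27, Srebf1 and Abcg8, and in 2.95% of all genes. EGFP 1 was the highest mouse in 2 of 27 genes (18.9% of all genes), EGFP 2 in 4 (20.1%), NeuroD-EGFP 1 in 2 (12.2%), NeuroD-EGFP 2 in 0 (9.71%) and NeuroD-EGFP 3 in 1 (12.1%).
The SD among the EGFP mice was larger than that among the NeuroD-EGFP mice in 24 of 27 genes, and in 74.4% of all tested genes. The median SD of the set was 0.75 with EGFP and 0.17 with NeuroD-EGFP, against 0.26 and 0.14 over all tested genes. The EGFP SD includes EGFP 3, whose region genes go against its label. For Sqle, EGFP 3 was at 11.65 and EGFP 1 and 2 at 8.30 and 8.15, while for Npc1l1 EGFP 1 stood apart.

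**Figure D4:**
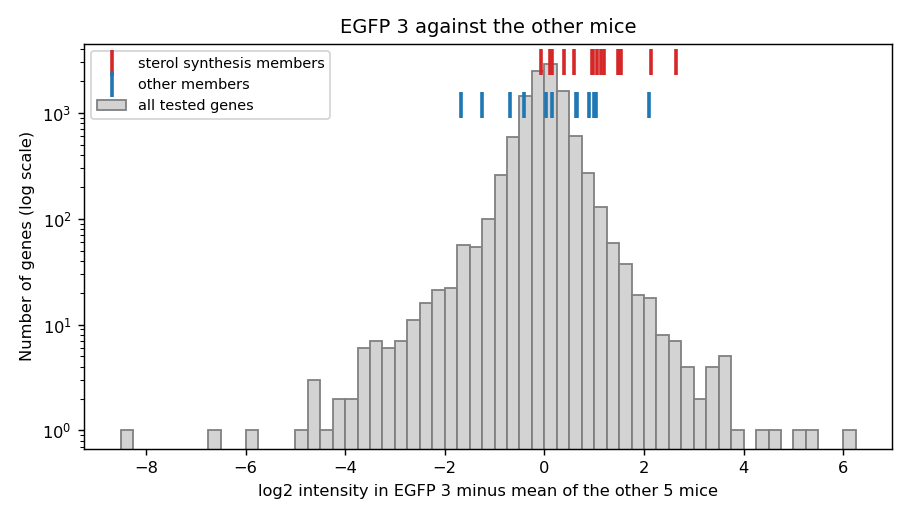
Log2 intensity in EGFP 3 minus the mean of the other 5 mice (horizontal axis) for all 10773 tested genes (bars, number of genes on a log scale), with ticks for sterol synthesis genes (red) and the other genes of the set (blue). Sqle is the red tick farthest right, at 2.64, and Srebf1 the blue tick farthest left, at -1.68.

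Many of the enzyme genes also followed each other across mice. Over the 105 pairs among the 15 tested sterol synthesis genes, the median Pearson correlation over 6 arrays was 0.65 (from -0.80 to 1.00), and 0.54 (from -0.98 to 1.00) over the 5 arrays without EGFP 3. Sqle correlated with Lss at 1.00 (0.999), with Cyp51 at 0.99, with Fdps at 0.98 and with Srebf2 at 0.97. Without EGFP 3 these were 1.00 (0.997), 0.97, 0.95 and 0.88. Some other enzymes were less alike without EGFP 3, as Msmo1 went from 0.91 to 0.61, Nsdhl from 0.89 to 0.62 and Tm7sf2 from 0.77 to 0.39. Mvk went from 0.01 to -0.43 and Ebp from 0.01 to -0.93. Dhcr7 went the other way, from 0.27 to 0.84, and Hsd17b7 stayed at 0.95. Sqle ran against Srebf1 (-0.81), Abcg8 (-0.80), Abcg5 (-0.89) and Abca1 (-0.83) over 6 arrays. Without EGFP 3 the values were 0.00 (-0.0030) for Srebf1, -0.17 for Abcg8, -0.75 for Abcg5 and -0.54 for Abca1. Points in these correlations share their arrays and normalization, so they are descriptions. No such correlation was taken over all tested genes for comparison. EGFP 3, which stood apart, weighs on the values over 6 arrays. On the other arrays Sqle was 8.30 and 8.15 in EGFP 1 and 2 against 9.33 to 9.79 with NeuroD-EGFP, a step that enters its correlations.

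**Figure D5:**
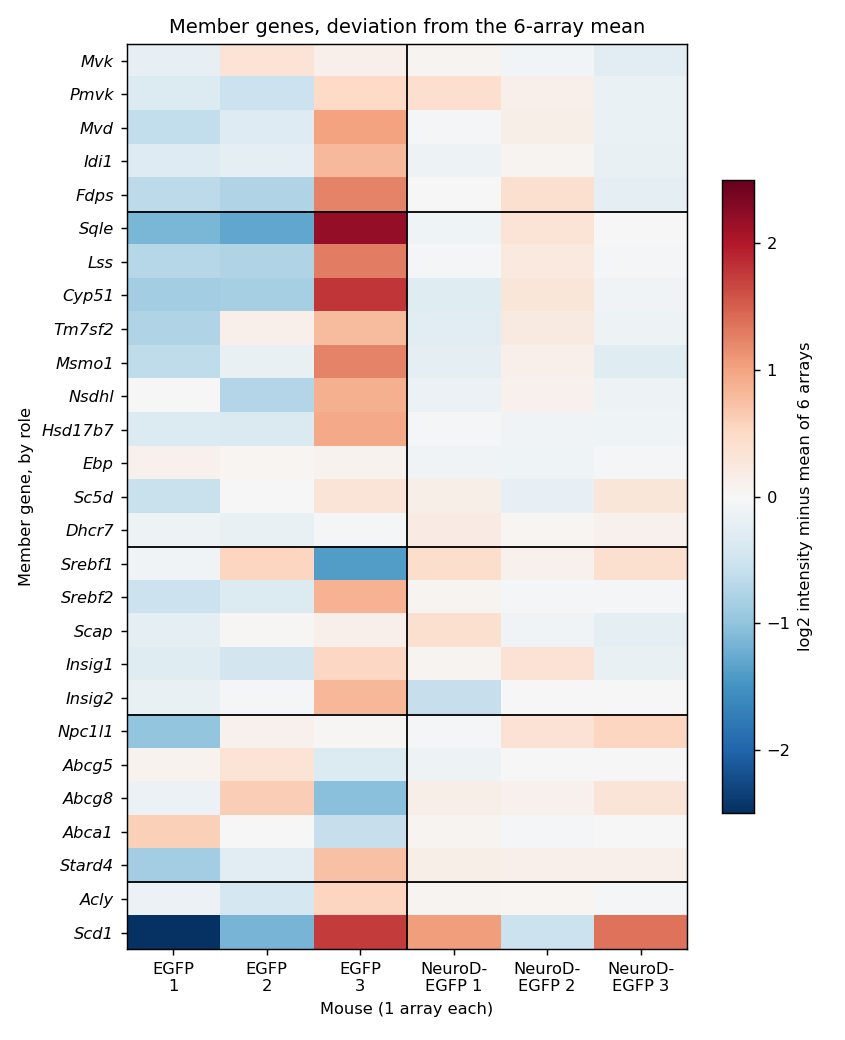
Log2 intensity minus the mean of the 6 arrays (colour) for each tested gene (rows, grouped by role from the mevalonate pathway down to fatty acids) in each mouse (columns). The EGFP 3 column is red for most sterol synthesis genes, with Sqle at 11.65 against 8.15 to 9.79 elsewhere, and blue for Srebf1, Abcg5, Abcg8 and Abca1.

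EGFP 3 was the highest mouse in 18 of 27 genes, so leaving it out lowers the EGFP mean of those genes by construction. Leaving out EGFP 1 or EGFP 2 instead gave medians of -0.13 and -0.089 for the set. Without EGFP 3, which leaves 2 EGFP mice, the set leaned towards higher values with NeuroD-EGFP. Of 27 genes 21 had a positive log2 difference, where 51.7% of all tested genes did, and the median was 0.30 against 0.01 over all tested genes. No adjusted p from limma was under 0.05 within the set, while 0.13% of all genes passed as higher and 0.0186% as lower. At an unadjusted p under 0.05, 10 of 27 were higher and none lower, where 7.26% of all tested genes were higher and 6.7% lower. Those 10 genes share the same arrays and are not independent of each other. The lowest adjusted p was 0.090, that of Sqle, with a log2 difference of 1.30 (SE 0.18), a 2.46-fold difference.
The others under that unadjusted threshold were Lss with 0.79, Cyp51 with 0.82, Scd1 with 2.44, Fdps with 0.75, Stard4 with 0.70, Srebf2 with 0.43, Pmvk with 0.57, Mvd with 0.44 and Insig1 with 0.46. All NeuroD-EGFP mice were above both remaining EGFP mice in 14 of 27 genes, which held for 16.7% of all tested genes, and below both in Ebp and Abcg5. Among genes over that threshold, the log2 difference without EGFP 3 was 0.21 for Idi1, 0.24 for Tm7sf2, 0.27 for Msmo1, 0.30 for Nsdhl, 0.26 for Hsd17b7, 0.35 for Sc5d, 0.12 for Scap and 0.31 for Acly, and -0.15 for Ebp and -0.29 for Abca1. By role, the medians without EGFP 3 were 0.44 for the mevalonate genes, 0.29 from squalene to cholesterol, 0.12 for the control genes and 1.38 for the 2 fatty acid genes.
Smooth muscle and gut region genes moved with these values. All 6 tested smooth muscle markers also had an unadjusted p under 0.05 without EGFP 3, all higher, with a median log2 difference of 0.72. Actg2, an enteric smooth muscle actin, had 10.55 and 10.68 in EGFP 1 and 2, 11.42, 11.35 and 11.58 in the NeuroD-EGFP mice and 12.41 in EGFP 3. Hoxb7, a patterning gene, had 4.63 and 5.66 in EGFP 1 and 2, 7.04 to 7.34 in the NeuroD-EGFP mice and 9.91 in EGFP 3. That is the order in which Sqle, Cyp51, Lss and Fdps stood. Slc5a8, a monocarboxylate transporter, had 5.22 and 6.71, then 8.83, 10.43 and 10.66, and 11.83 in EGFP 3, while Lct was near 13 in the NeuroD-EGFP mice and EGFP 2. The ileal Fabp6 was undetected in NeuroD-EGFP 2 and 3, and Cyp2c55, another colon gene, was lower with NeuroD-EGFP than in EGFP 1 and 2. The part of smooth muscle content and gut region in the sterol gene values was not tested, and in EGFP 3, a single mouse, region and mouse cannot be told apart.

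A further list held 28 genes tied to SREBP and LXR by known role, of which 18 were tested, 5 had a probe that was not tested and 5 had no probe named here. No adjusted p from limma was under 0.05 (lowest 0.92), 9 were positive and 9 negative, and the median was 0.03. Slc25a1 alone had an unadjusted p under 0.05, as higher with NeuroD-EGFP, which held for 2.2% of all tested genes. Slc25a1, the mitochondrial citrate carrier that feeds Acly, had 9.63, 10.18 and 9.82 with EGFP and 10.56, 10.34 and 10.29 with NeuroD-EGFP, a log2 difference of 0.52 (SE 0.18, limma adjusted p = 0.92). Its groups did not overlap and its value was 0.49 without EGFP 3. Elovl6, which elongates palmitate, had a log2 difference of -0.51 (SE 0.23, limma adjusted p = 0.92), and the acyl-CoA synthetase Acsl3 had 0.48 (SE 0.26). Nr1h3, which encodes LXR alpha, had 0.29 (SE 0.16). Without EGFP 3 these were -0.67, 0.65 and 0.20. The list then had 10 of 18 genes positive and a median of 0.09. At an unadjusted p under 0.05, 2 were higher and 2 lower, where 7.26% of all tested genes were higher and 6.7% lower.
Of the 18 tested genes, 3 were highest in EGFP 3, against 26.7% of all tested genes, and 6 were lowest, against 23.7%. Fads2, a fatty acid desaturase under SREBP control, was among the highest ones, at 7.67 against 5.91 to 6.58. Mlxipl, the carbohydrate-sensing factor ChREBP, was among the lowest, at 8.95 against 10.11 to 10.57.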

How the data were processed

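Groups followed the submitters' labels, and the age and the injected volume came from the methods. The authors deposited background-subtracted intensities for 45281 probes. A detection p-value was deposited for each of them. A further table that the authors deposited holds log2 of the same intensities (largest difference 1.23e-06), with 4 where the signal was not above 0, unscaled between arrays. The scanner software is not given in the sources used here.

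Intensities were processed in limma 3.58.1 (R 4.3.3) by the steps of neqc. It infers the background from the detection p-values, corrects the intensities by normexp, adds an offset (16), quantile-normalizes and takes log2. The filter kept 19099 probes, fitted by lmFit and eBayes. Symbols were those of the platform table brought up to date through RefSeq, which gave 34885 probes 1 symbol and 18 several, while 10378 were unlisted. The fit was tested on simulated data. The members and lists were chosen with earlier results of these data known, and the region lists after values of these arrays were seen. The text names all tested members and the 4 related genes of lowest p. Fads2, Mlxipl, Actg2 and the region genes were chosen after their values were seen. Alternatives changed the offset, background correction, scaling, filter, prior, array weights, probe choice or test, added a replicate block, used the authors' log2 table, or dropped 1 mouse at a time. Beadchips are not named in the labels, so none was blocked.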

Additional observations from a re-analysis of the deposited data

How the results depend on the processing

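No gene passed an adjusted p of 0.05 from limma under any alternative with all 6 mice, and no member did under any alternative. Leaving out 1 mouse gave between 0 and 16 genes, the 16 without EGFP 3. Unadjusted p-values under 0.05 numbered 513 genes with the main settings, 616 by the methods' t-test, 1120 without the detection filter, 1065 with array weights and 1227 on the authors' log2 values, and 290 to 1504 when 1 mouse was left out. The members among them numbered 0 with the main settings, 2 by the methods' t-test, 3 on the authors' log2 values, 1 with array weights, 2 without EGFP 2 and 10 without EGFP 3. The labels do not say whether same-numbered mice were paired. The correlations of their deviations were 0.30, -0.09 and 0.16, which cannot settle it. With the replicate number as a block there were 0 calls, and 575 genes and 1 member at an unadjusted p under 0.05.

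Array weights took the median of the set to 0.23, of the mevalonate genes to 0.27 and of the squalene to cholesterol genes to 0.23, and moved the log2 difference of Mvd to 0.27, Idi1 to 0.073, Cyp51 to 0.48, Tm7sf2 to 0.23, Msmo1 to 0.11, Nsdhl to 0.057, Hsd17b7 to 0.052, Srebf2 to 0.25 and Abca1 to -0.23. The authors' unscaled log2 values, where the median of all genes was -0.27, moved Fdps to -0.15, Sqle to -0.072, Lss to -0.094, Sc5d to -0.12, Dhcr7 to -0.029, Scap to -0.24, Insig1 to -0.094, Abca1 to -0.11, Stard4 to -0.0030 and Acly to -0.23, and took the median of the control genes to -0.24 and that of the transport genes to -0.0030. The mean of probes moved Nsdhl to 0.073, scaling to the 75th percentile moved Srebf2 to 0.024, the floor of 16 moved Srebf2 to 0.011 and the offset of 50 moved Abca1 to -0.017. Leaving out each mouse in turn, the median ran from -0.13 to 0.30 for the set, from -0.32 to 0.44 for the mevalonate genes, from -0.31 to 0.29 for squalene to cholesterol, from -0.054 to 0.18 for the control genes, from 0.15 to 1.38 for the fatty acid genes and from -0.040 to 0.27 for the transport genes. The log2 difference ran from -0.36 to 0.44 for Mvd, -0.36 to 0.21 for Idi1, -0.24 to 0.75 for Fdps, -0.45 to 1.30 for Sqle, -0.23 to 0.79 for Lss, -0.51 to 0.82 for Cyp51, -0.53 to 0.24 for Tm7sf2, -0.67 to 0.27 for Msmo1, -0.51 to 0.30 for Nsdhl, -0.40 to 0.26 for Hsd17b7, -0.088 to 0.35 for Sc5d, -0.26 to 0.43 for Srebf2, -0.14 to 0.18 for Scap, -0.030 to 0.46 for Insig1, -0.25 to 0.090 for Abcg5, -0.040 to 0.79 for Abcg8, -0.29 to 0.30 for Abca1, -0.11 to 0.70 for Stard4 and -0.18 to 0.31 for Acly. With no change of sign, it ran from 0.21 to 0.76 for Npc1l1, 0.33 to 2.44 for Scd1, 0.083 to 1.05 for Srebf1, -0.60 to -0.091 for Insig2, 0.054 to 0.57 for Pmvk, -0.32 to -0.048 for Mvk, 0.20 to 0.27 for Dhcr7 and -0.18 to -0.14 for Ebp. The cause was not tested. Dim probes near background, such as that of Mvk, and the number of arrays limit the precision.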
